A study of Mus musculus with 15 samples.

Results

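The luminal epithelium of U-OEx mouse uteri was profiled in 3 RNA-seq libraries, all with a genotype label of overexpressed Notch1 and all from day 4. They were chosen by their titles, and they are 3 of the 15 libraries in a study that placed 3 libraries in each of 5 groups. The other groups are luminal (LE) and glandular (GE) epithelium of wild-type controls (Ctrl) and of a second Notch1-overexpressing group named E-OEX, also on day 4. The series title names overactivated Notch1 signalling in uterine epithelium as its subject. The labels do not spell out the names U-OEx and E-OEX, the promoter or Cre line that drives Notch1, or whether the 3 libraries came from separate animals, so the spread between them may be partly technical. All 27946 listed genes were described, of 27946 in each U-OEx table, with no contrast to another group and no hypothesis test.

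The tables of the other groups are shorter. All 6 Ctrl tables list the same 6414 genes and all 6 E-OEX tables the same 4903. The group means in GE and LE could be compared on the log2 scale for genes above 0 in both groups, 5859 of the Ctrl genes and 4386 of the E-OEX genes. All of those Ctrl genes lay at least 1.0001 apart, and all but 1 of those E-OEX genes, at 0.998, at least 1 apart. As far as they could be compared, both lists therefore hold genes that differ about 2-fold or more between glands and lumen. The U-OEx tables carry no such selection. Of their 27946 genes, 19885 (71.2%) stand in neither other list, and their levels are shown for these 3 libraries only. Absence from a list was never read as absence of expression.

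The luminal epithelium is the single layer of cells facing the uterine cavity, and the embryo attaches to it. It secretes antimicrobial and lubricating proteins and, under ovarian estrogen and progesterone, stops dividing and becomes receptive around the time of attachment. Notch1 is a surface receptor. When a ligand on a neighbouring cell binds it, the protease ADAM10 and then the gamma-secretase complex cut it, and the freed intracellular domain joins the DNA-binding protein RBPJ and a Mastermind co-activator to switch on target genes of the Hes and Hey families.

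Reads in listed genes numbered 14981505, 14408829 and 13541644 in replicates 1 to 3, and 23799 to 24234 genes had at least 1 read in a library. Reads were found in all 3 libraries for 21207 genes, in 2 libraries for 2943, in 1 library for 2530 and in none for 1266. A count of 0 allows up to 3 reads in a library, for counting error only. Levels are given as RPKM, reads per kilobase of exon scaled to the reads in listed genes of the library, so that genes of unequal length can be compared. Within pairs of replicates the Pearson correlation of log2 values across 16793 genes was 0.965 for replicates 1 and 2, 0.973 for 1 and 3, and 0.952 for 2 and 3. Those are correlations across genes, which are not independent replicates. A chi-square statistic of 27.9 to 43.3 per degree of freedom showed that no library was a copy of another.

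Replicates 2 and 3 stood apart in some gene groups. Replicate 2 had the lowest values of all 13 leukocyte genes with a mean of 10 reads or more. The summed level over 18 leukocyte genes was 296 RPKM there, against 2023 in replicate 1 and 3520 in replicate 3. Much of these sums came from S100a8 (701, 51.3 and 1194 RPKM in replicates 1 to 3) and S100a9 (1048, 92.3 and 1927). Replicate 2 had the highest sum of 10 stratified and urothelial genes, a list chosen after the values were seen, with 133 RPKM against 18.5 and 22.8. Replicate 3 had the highest values of all 15 immediate early and heat shock genes, summing to 2576 RPKM against 906 and 701. It also had the largest share of reads from the mitochondrial genome, 3.66% against 2.04% in replicate 1 and 2.01% in replicate 2.

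The labelled cell type was checked against marker lists. All 12 general epithelial genes were at 1 RPKM or more in every library, among them the keratin genes Krt8 (521 ± 104 RPKM, SD, n = 3), Krt18 (362 ± 72.8) and Krt19 (828 ± 220) and the adhesion gene Epcam (242 ± 47.1). Of 12 luminal epithelial genes, 10 reached 1 RPKM in every library. Ltf, which encodes the secreted iron-binding protein lactoferrin, had 2687, 2861 and 1396 RPKM. Sprr2f, a small proline-rich protein gene of the cornified envelope family, had 946, 721 and 713. The 2 luminal markers near 0 were the signalling ligands Ihh, with 1, 7 and 6 reads, and Areg, with 12, 1 and 6 reads.

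Markers of other uterine cells were low, with exceptions. Smooth muscle genes summed to between 3.62 and 5.95 RPKM over 8 genes, endothelial genes to between 4.70 and 6.20 over 8 genes, and pericyte genes to between 0.0727 and 0.444 over 4 genes. Among 12 stromal genes Twist2 was at 0 in all libraries, and the sums were 13.4, 9.56 and 34.4 RPKM in replicates 1 to 3. The mesothelial list of 4 genes, which mark the outer lining of the uterus, summed to 2.58, 3.62 and 21.1. Replicate 3 thus held the highest stromal and mesothelial sums. In bulk samples, fewer cells of a type and less RNA per cell cannot be told apart.

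The glandular list gave a divided picture. Of its 12 genes, 11 were listed and 5 were at 1 RPKM or more in every library. The serine protease inhibitor gene Spink1, the protease gene Prss29 and Ttr, which encodes transthyretin, had no read in any library. Foxa2, the transcription factor that marks gland cells, had 20.8, 15.5 and 14.3 RPKM, and Lif, which encodes the cytokine needed for implantation, had 9.19, 7.24 and 14.5. Prap1, a proline-rich acidic protein gene, had 56.3, 245 and 96.2 RPKM, highest in replicate 2. Also among the 5, Cxcl15 had 5.46, 5.02 and 2.53 RPKM and Gpx3 had 4.68, 3.75 and 20.04. The label of luminal epithelium was therefore met by the epithelial and most luminal markers. Beside them, the glandular genes Foxa2, Lif, Prap1, Cxcl15 and Gpx3 were expressed in all 3 libraries.

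**Figure D1:**
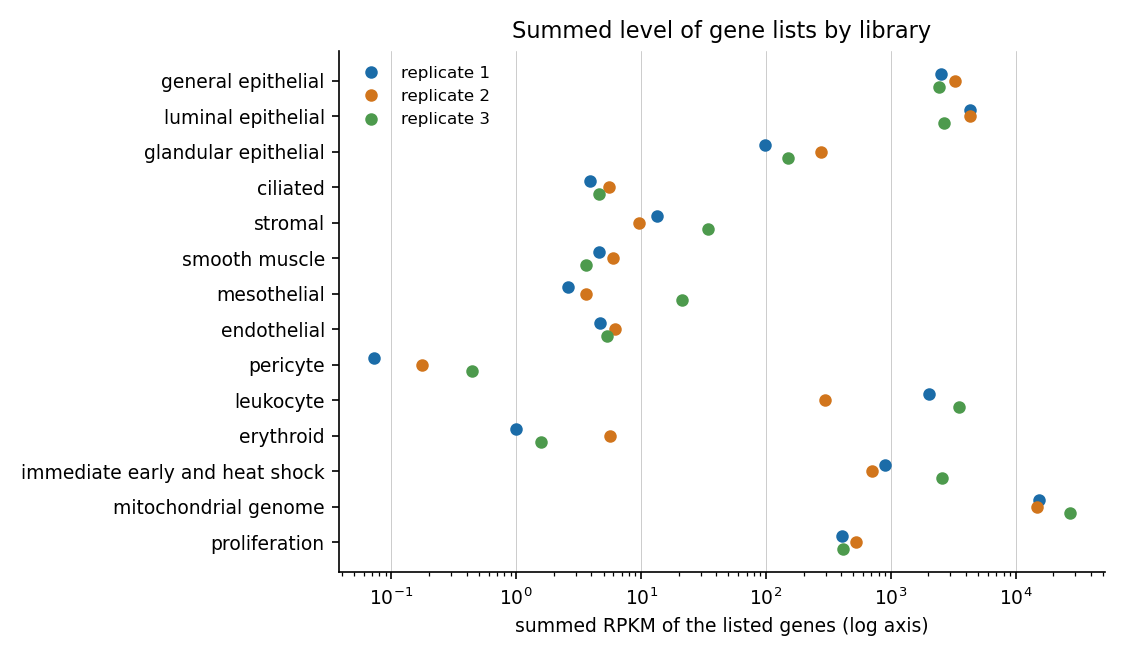
Summed RPKM of the genes of each list (log x axis) in the 3 U-OEx LE libraries, 1 point per library. General and luminal epithelial lists lie at 2435 RPKM or more in every library and smooth muscle, endothelial and pericyte lists at 6.20 or less. The leukocyte list runs from 296 in replicate 2 to 3520 in replicate 3, and S100a8 and S100a9 make up most of its sum in replicates 1 and 3.

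The level of a gene spanned several orders of magnitude. Of 27147 genes with an annotated exon length, 12994 (47.9%) were at 1 RPKM or more in every library, 5059 at 10 or more, 308 at 100 or more and 10 at 1000 or more. Protein-coding genes made up 10916 of the 12994, out of 16762 listed. The top 1223, 1338 and 1271 genes held 50% of reads in replicates 1 to 3. The median level was 1.23 RPKM over all genes and 4.33 over protein-coding genes.

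The highest protein-coding genes were mitochondrial, followed by genes of secreted proteins and of translation. The mitochondrial gene mt-Co1, a subunit of cytochrome c oxidase, had 7787, 8156 and 14687 RPKM, and mt-Cytb, the cytochrome b gene, had 3485, 3184 and 4721, both highest in replicate 3. Ltf (2315 ± 800 RPKM) and Lcn2 (2235 ± 687), whose product sequesters bacterial siderophores, were the highest nuclear protein-coding genes. Eef1a1, a translation elongation factor gene, followed at 1588 ± 472, then the calcium-binding protein gene S100a11 at 1585 ± 292 and the antiviral membrane protein gene Ifitm3 at 1450 ± 188. The means of Ltf and Lcn2 lay closer together than either SD, and so did those of Eef1a1 and S100a11, and of S100a11 and Ifitm3. These means therefore do not settle the order of such neighbours, and differences within each library were not tested. Lcn2 and Eef1a1 lay further apart than the SD of Eef1a1 but not than that of Lcn2.

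Mucosal defence genes were high as a list. All but 1 of 18 genes were at 1 RPKM or more in every library, and their median was 271 RPKM against 4.33 for all protein-coding genes. The list was chosen with earlier results of these data known, so its median is a description and not independent evidence. Pigr, the receptor that carries IgA across the epithelium, had 1026, 674 and 593 RPKM. Olfm4, which encodes a secreted glycoprotein, had 1173, 469 and 575, and Cxcl5, a neutrophil-attracting chemokine gene, had 480, 72.7 and 296. Replicate 2 was the lowest library for 10 of the 17 genes with enough reads to rank. The exception below 1 RPKM was the cathelicidin gene Camp, at 11, 2 and 4 reads.

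Notch1 itself, the gene named by the genotype label, is in neither other table. It had 3170, 3965 and 2904 reads, or 14.9, 19.3 and 15.1 RPKM, and its highest value was in replicate 2. A gene-level value sums every read assigned to Notch1, so reads of the endogenous gene and of a transgene cannot be told apart. Notch2 (12.1 ± 0.489 RPKM) and Notch3 (16.4 ± 6.38) lay near Notch1 (16.4 ± 2.52). The means of Notch1 and Notch3 lay closer together than either SD, and their difference within each library was not tested. Notch4 was lower, at 0.477 ± 0.153.

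Among the ligands 1 gene dominated. Jag1, also in neither table, had 37.7, 52.4 and 40.7 RPKM. Dll4 had 1.25, 2.38 and 2.74, Jag2 had 0.537, 1.40 and 1.11, and Dll1 and Dll3 were below 1 in all libraries. The lowest Jag1 value was more than 10 times the highest Dll4 value.

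Most genes of the machinery that cuts and modifies the receptor were expressed. Of 15 processing genes, 13 were at 1 RPKM or more in every library. In neither other table were 10 (66.7%), near the 64.6% of all listed protein-coding genes. The gamma-secretase subunit genes Ncstn (57.2 ± 1.94 RPKM), Psenen (38.3 ± 2.89) and Aph1a (25.1 ± 3.22) were all among those 10. So were Adam10 (35.9 ± 5.37), Adam17 (16.6 ± 2.40) and Furin (26.9 ± 4.93), the proteases that act before gamma-secretase. Of the 3 Fringe glycosyltransferase genes, which change the ligand preference of Notch receptors, Rfng was highest at 36.3 ± 0.619 RPKM, Lfng had 6.72 ± 1.96 and Mfng 0.534 ± 0.0671.

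In the nucleus, 8 of 9 genes of the Notch complex and its co-repressors reached 1 RPKM in every library. Of the 9, 6 (66.7%) were in neither table, near the 64.6% of all listed protein-coding genes. Rbpj, the DNA-binding partner, had 5.22, 5.46 and 6.13 RPKM. Maml1 (8.37 ± 0.668) was the highest of the Mastermind co-activators, above Maml2 (2.03 ± 0.692) and Maml3 (1.20 ± 0.183). Spen, a co-repressor that binds RBPJ, varied by 0.346% (coefficient of variation, CV, the SD as a percent of the mean of the scaled reads), among the lowest 12 values of all genes with a mean of 1000 scaled reads or more.

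Notch target genes had a median CV of 34.9% over the 10 with a mean of 100 reads or more, beside 34.3% over 3 ligand genes, 12.8% over 3 receptor genes and 11.6% over 13 processing genes. The lists overlap, since Notch3, Nrarp and Dtx1 are both targets and members of another Notch list. Of 14 targets 10 were at 1 RPKM or more in every library, and 8 of the 14 had their highest value in replicate 2. Hes1, a transcriptional repressor, had the highest mean level and the lowest CV of the 14, at 97.3, 102 and 92.6 RPKM. Its relative Hey1 had 19.8, 31.3 and 23.4. Heyl had 1.89, 11.4 and 1.40, a highest value 8.03 times the lowest on the scaled reads, and Hes5 and Hey2 stayed below 1 RPKM in at least 2 libraries.

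The 2 targets in neither table followed the pattern of Heyl. Nrarp, which encodes a feedback inhibitor of Notch signalling, had 8.89, 21.7 and 6.98 RPKM, and Ccnd1, the cyclin D1 gene, had 11.1, 38.6 and 11.6. Replicate 2, the library with the highest Notch1, Notch3, Heyl, Nrarp and Ccnd1 values, is also the one with the lowest leukocyte sum and the highest stratified and urothelial sum. Of the 8 stratified and urothelial genes with a mean of 10 reads or more, 6 were highest in replicate 2. That list was chosen after the values were seen, so this count is a description and not independent evidence. Whether the cell makeup had a part in these values was not tested.

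**Figure D2:**
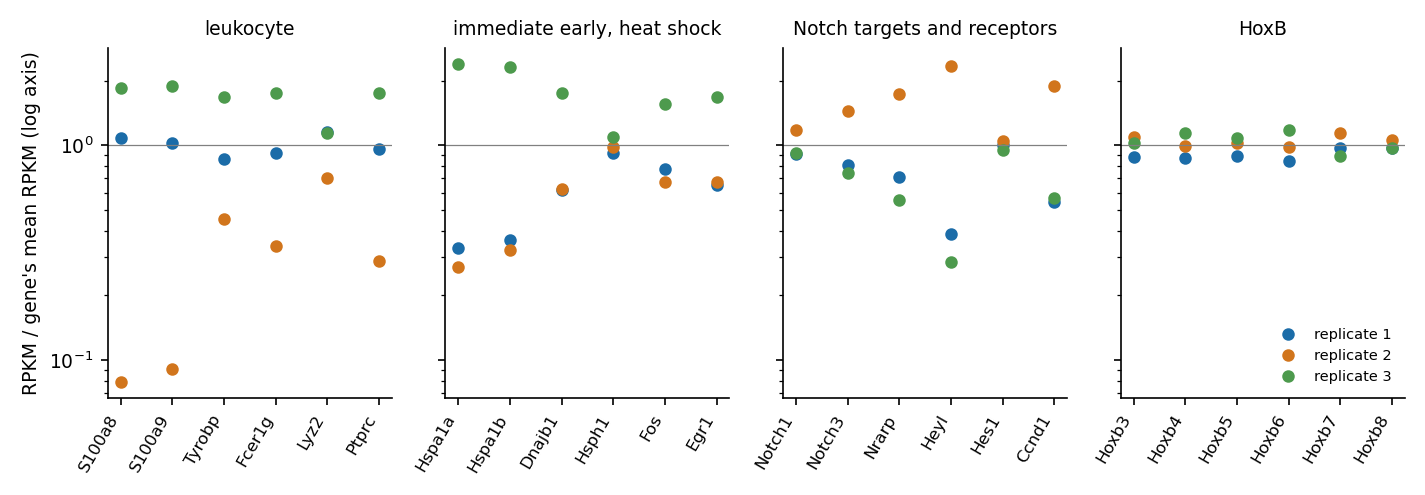
RPKM of single genes divided by the mean of that gene over the 3 U-OEx LE libraries (log y axis), 1 point per library, in 4 groups of genes. Leukocyte genes are lowest in replicate 2, immediate early and heat shock genes highest in replicate 3, Heyl, Nrarp and Ccnd1 highest in replicate 2, and the HoxB genes lie close to their mean.

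Genes of steroid receptors and their co-factors had a median CV of 11.2%, and the receptivity and Lif pathway list had 21.7%, beside 12.3% over all genes with a mean of 100 reads or more. Esr1, the estrogen receptor alpha gene, had 13.8, 14.9 and 10.3 RPKM, and Pgr, the progesterone receptor gene, had 5.94, 7.70 and 6.93, while Esr2 had 2, 23 and 3 reads. Among genes in neither table, Nr2f2 (15.5 ± 1.35 RPKM), an orphan nuclear receptor gene, and Arid1a (33.3 ± 0.468), a subunit gene of the SWI/SNF chromatin remodeller, had small SDs. Msx1, a homeobox gene of the receptive epithelium that is in neither table, had 79.3, 96.3 and 74.2 RPKM. In the Lif pathway Jak1 (22.7 ± 1.41), Jak2 (41.9 ± 1.74) and Stat3 (41.5 ± 7.06) were in neither table, and so was the feedback inhibitor Socs3, which had 96.3, 30.0 and 149 RPKM, lowest in replicate 2.

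All 20 proliferation genes were at 1 RPKM or more in every library, with a median of 19.6 RPKM. Pcna, the sliding clamp of DNA polymerase, had 55.4, 67.5 and 48.5 RPKM, Mki67, which marks cycling cells, had 23.4, 30.7 and 31.8, and the DNA topoisomerase gene Top2a had 25.9, 32.7 and 27.8. Replicate 2 was the highest library for 17 of the 20. It was also the library with the highest stratified and urothelial sum, whose part in these values was not tested. No test set these levels against a quiescent or a dividing epithelium.

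A single Hox cluster held every Hox gene at 1 RPKM or more. Hox genes encode homeodomain transcription factors that give cells their position along the body axis, and mammals carry them in 4 clusters, A to D. The HoxB cluster (GRCm38, chr11:96194316-96368256) had 9 of its 10 genes listed, and 8 of them reached 1 RPKM in every library. Those 9 genes are all in neither other table, against 64.6% of all listed protein-coding genes.

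Hoxb6 was the highest Hox gene, with 175, 206 and 245 RPKM. Hoxb8 had 74.0, 80.5 and 74.5 RPKM, Hoxb7 had 55.3, 65.4 and 51.2, Hoxb5 had 38.4, 44.0 and 46.6, and Hoxb4 had 34.9, 39.6 and 45.6. Levels fell off towards both ends of the cluster, to 16.6 ± 1.79 for Hoxb3, 3.11 ± 0.369 for Hoxb2 and 0.0312 ± 0.0318 for Hoxb1 on one side and 12.4 ± 0.920 for Hoxb9 on the other. In this order the ranges of Hoxb5 and Hoxb4 overlapped between libraries. Within each library Hoxb5 was above Hoxb4, and the difference was not tested.

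The other clusters were near 0. HoxA (chr6:52155590-52260880) had 10 of 11 genes listed, HoxC (chr15:102921103-103036852) 7 of 9 and HoxD (chr2:74668310-74765142) 5 of 9. None of those genes reached 1 RPKM in every library, and the highest mean was 0.854 ± 0.445 RPKM, for Hoxa4. Hoxa10 and Hoxa11, which the stroma of the uterus is known to express, had 3, 6 and 2 reads and 0, 0 and 3 reads. The summed level of HoxB was 408, 470 and 495 RPKM against at most 2.39 for any other cluster in any library.

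**Figure D3:**
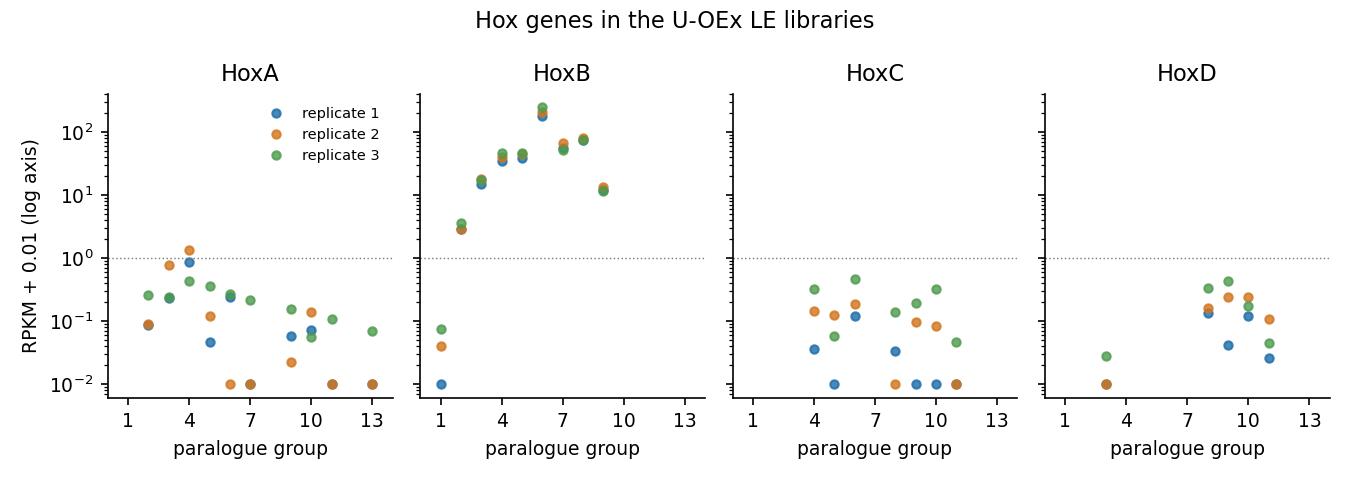
RPKM plus 0.01 (log y axis) of each listed Hox gene by paralogue group, in 4 panels for clusters A to D, 1 point per U-OEx LE library and a dotted line at 1 RPKM. Paralogues 2 to 9 of HoxB lie above the line in all 3 libraries, and in the other clusters a single point, Hoxa4 in replicate 2, lies above it.

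The genes in neither other table carried most of the transcriptome. They held 69.2%, 70.1% and 70.0% of reads in replicates 1 to 3 (69.8 ± 0.492%, SD, n = 3), close to their 71.2% share of the list. Of the 12994 genes at 1 RPKM or more in every library, 9305 (71.6%) were among them. Genes with no read in any library were also mostly of this kind, 982 of 1266.

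Among protein-coding genes the level differed by listing. The median was 5.94 RPKM for the 10830 genes in neither table and 3.88 for the 2457 in the Ctrl list only. It was 0.934 for the 1199 in the E-OEX list only and 0.780 for the 2276 in both lists. At 1 RPKM or more in every library were 71.9% of the genes in neither table and 41.2% of those in both. These are descriptions of the lists in this group, with no test.

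**Figure D4:**
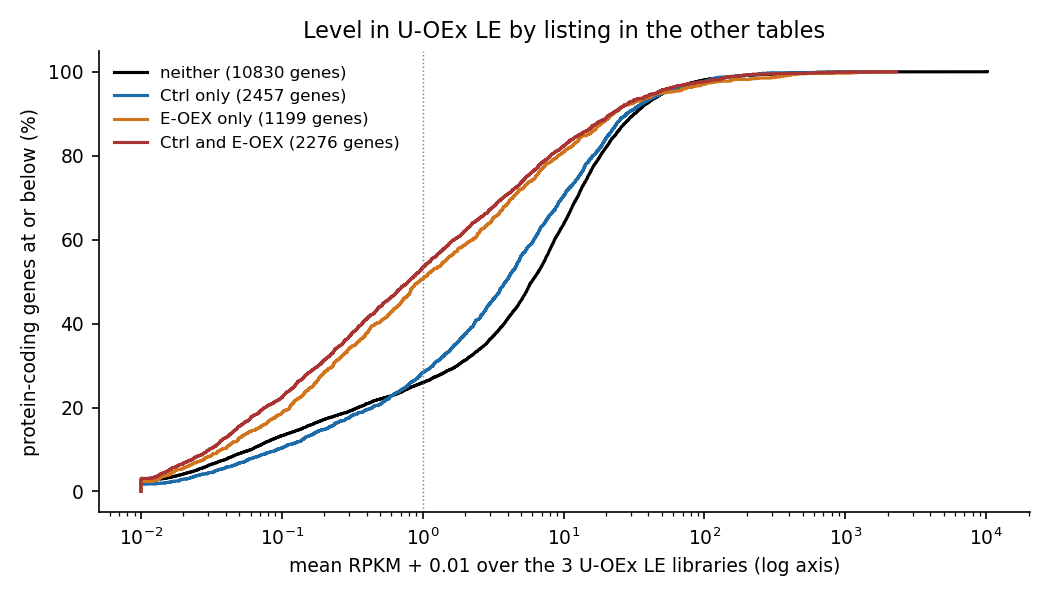
Cumulative share of protein-coding genes (y axis, %) at or below a mean RPKM plus 0.01 (log x axis) over the 3 U-OEx LE libraries, by listing in the Ctrl and E-OEX tables, with a dotted line at 1 RPKM. The curve of genes in neither table (median 5.94 RPKM) lies to the right of the curve of genes in both (median 0.780) across the middle of the range.

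Gene families of basic cell function stood almost entirely in neither table. That was so for 78 of 82 listed ribosomal protein genes, 42 of 46 Nduf genes of respiratory complex I, 8 of 8 Uqcr genes of complex III and 23 of 26 Cox genes of complex IV. It was also so for 17 of 17 Atp5 genes of ATP synthase and 44 of 48 proteasome genes, against 64.6% of all listed protein-coding genes. Summed levels of some of these families differed little between libraries. Ribosomal protein genes summed to 22596, 22077 and 22083 RPKM, Nduf genes to 1407, 1428 and 1370, and Uqcr genes to 514, 497 and 532. Cox genes summed to 1516, 1398 and 1512. Atp5 genes, at 982, 948 and 863, and proteasome genes, at 1978, 1889 and 1652, were lowest in replicate 3. Of 46 proteasome genes with a mean of 10 reads or more, 40 were lowest there. Zinc finger genes with Zfp symbols, which encode DNA-binding proteins, had 306 of 379 in neither table.

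Other lists had no member there. The stromal, smooth muscle, mesothelial, endothelial, pericyte, erythroid, glandular and immediate early and heat shock lists had 0 of their listed genes in neither table. Of 18 leukocyte genes 12 (66.7%) were in neither table, near the 64.6% of all listed protein-coding genes. These 12 included Ptprc, which encodes the CD45 surface protein of leukocytes, and the neutrophil calprotectin genes S100a8 and S100a9.

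Junction and structural genes marked an epithelium with a restricted keratin set. All 14 tight junction genes were at 1 RPKM or more in every library. Of them 5 (35.7%) were in neither table, against 64.6% of all listed protein-coding genes. Tjp3, a scaffold gene of the junction, had 184, 181 and 195 RPKM, and Cgn, the cingulin gene, which is in neither table, had 36.2, 38.6 and 39.7. Cldn1, a barrier-forming claudin gene, was less steady at 16.1, 35.0 and 9.24. Of 42 listed keratin genes 11 reached 1 RPKM in every library. Genes of motile cilia were near 0, with the ciliary transcription factor gene Foxj1 at 7, 27 and 3 reads, and 1 of 9 ciliated genes, Cfap43, reached 1 RPKM in every library.

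Transporter and sensory receptor families differed in how much of them was expressed. Of 330 listed solute carrier genes, which encode membrane transporters, 199 were at 1 RPKM or more in every library. In neither table were 174 (52.7%), against 64.6% of all listed protein-coding genes. Zfp genes had 267 of 379 at 1 RPKM or more in every library. Odorant receptor genes had 62 of 1135 annotated members listed and vomeronasal receptor genes 21 of 333, and none reached 1 RPKM in every library, although 54 of the 62 and 15 of the 21 are in neither table. A listing in these tables therefore does not itself mean a level of 1 RPKM. The list is also not the whole annotation, since it holds 16762 of 22028 annotated protein-coding genes. Among 11 listed imprinted genes, expressed from 1 parental allele, Peg10 had 24.8, 13.1 and 29.2 RPKM, Igf2r 17.7, 17.0 and 12.8 and Plagl1 16.1, 17.6 and 13.6, while H19 had 3, 6 and 1 reads.

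The highest protein-coding genes in neither table were of several kinds. Mitochondrial mt-Co1 and mt-Cytb led, with 10210 ± 3881 and 3797 ± 814 RPKM. Translation genes among the top 20 were Eef1a1, Rplp1 (1348 ± 289), Rpl36 (1029 ± 118), Rps15 (907 ± 39.5) and Eef2 (647 ± 141). Genes of secreted and surface defence products among them were Pigr (764 ± 230), S100a9 (1022 ± 917), S100a8 (648 ± 573), the class I histocompatibility gene H2-K1 (635 ± 84.4) and Mmp7 (610 ± 191), a matrix metalloproteinase of mucosal epithelia. Sprr2d, another small proline-rich protein gene, had 1152, 348 and 665 RPKM.

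Replicate spread was larger than counting error for most genes. Over 11189 genes with a mean of 100 reads or more, the median CV was 12.3% (quartiles 7.33% and 19.8%), while counting error alone gives a median of 3.97%. The CV exceeded 2 times the counting value for 70.2% of these genes. It was 16.6% at a mean of 100 to 300 reads, 10.5% at 1000 to 3000 and 16.2% at 10000 or more, while counting error alone gives 0.851% in the last range. The common biological coefficient of variation estimated by edgeR was 26.3%, and with 1 library left out it lay between 21.5%, without replicate 2, and 31.0%, without replicate 1.

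Genes in neither table varied least. Among protein-coding genes with a mean of 100 reads or more, the median CV was 10.7% in neither table, 14.8% in the Ctrl list only, 17.9% in the E-OEX list only and 20.04% in both. Genes in neither table had the lowest median in each of 4 ranges of mean reads. At 300 to 1000 reads, for example, it was 10.4% over 3333 genes in neither table and 19.1% over 302 genes in both.

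**Figure D5:**
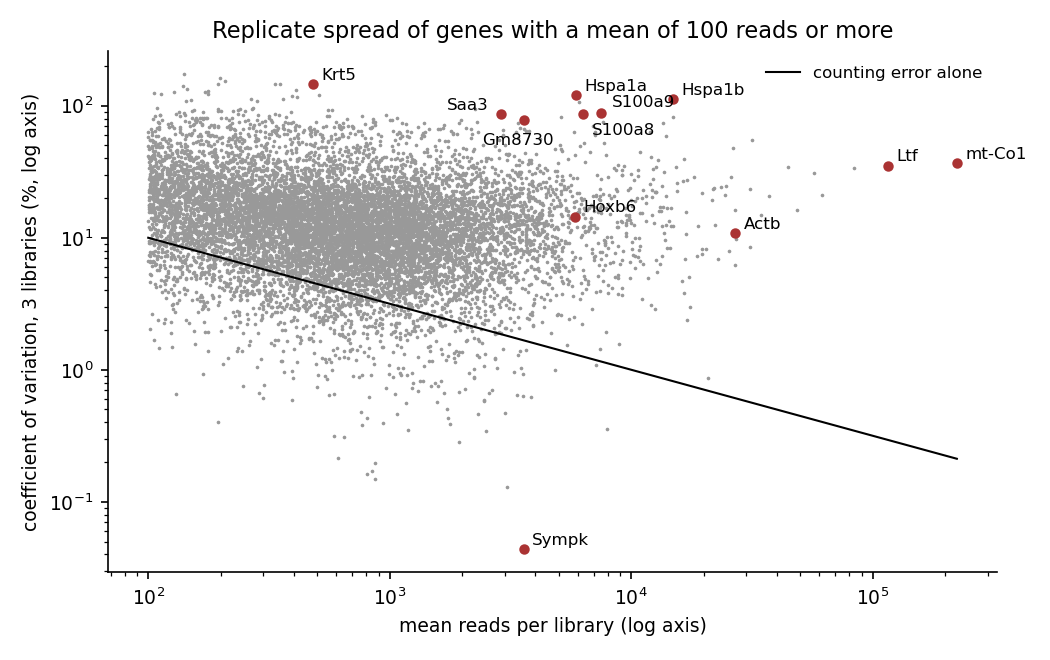
CV over the 3 U-OEx LE libraries (%, log y axis) against mean reads (log x axis) for 11189 genes, with the CV of counting error alone as a line and named genes in red. Most genes lie above the line, Hspa1a and Hspa1b exceed 100%, and Sympk lies at 0.0441%.

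The 12 lowest CVs among 3477 genes with a mean of 1000 scaled reads or more all belonged to genes in neither table, which hold 2546 of the 3477. Sympk, a scaffold of the mRNA 3' end processing machinery, had 22.8, 24.5 and 24.1 RPKM and a CV of 0.0441% on the scaled reads. Dhx15, an RNA helicase of spliceosome disassembly, had a CV of 0.129%, the splicing activator gene Rnps1 0.503%, the histone methyltransferase gene Ehmt2 0.354% and the proteasome subunit gene Psmd4 0.435%. The kinase gene Jak2, the lysosomal mannosidase gene Man2b1 and the transcription factor gene Mef2d were also among the 12. Counting error alone gives a larger CV than these, so such values are the lowest of a large number and are not a measure of true constancy.

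A CV of 50% or more was found for 428 genes, 3.83% of those with 100 reads. The highest value was in replicate 3 for 256 of them and the lowest in replicate 2 for 292. The order of replicate 3 above 1 above 2 held for 236. Of the 428, 172 were in neither table. They are 2.17% of the 7930 genes in neither table with a mean of 100 reads or more, against 3.83% over all 11189.

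Among the 12 highest CVs at a mean of 1000 scaled reads or more were the leukocyte genes S100a8, S100a9, Selplg and Slfn4. The others were Hspa1a, Hspa1b, mt-Rnr2, mt-Nd6, Saa3, Chil1, Alox12e and Gm8730. S100a8 had 701, 51.3 and 1194 RPKM and S100a9 1048, 92.3 and 1927, a highest value 23.6 and 21.2 times the lowest on the scaled reads. Csf3r, the receptor of the granulocyte growth factor G-CSF, had 127, 44.2 and 240. Selplg, a selectin ligand gene of leukocytes, had 14.3, 5.38 and 33.9, and Slfn4, a Schlafen gene of myeloid cells, had 89.4, 16.2 and 169. All of these were lowest in replicate 2 and highest in replicate 3.

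The leukocyte genes with enough reads to rank behaved alike. Of the 18 genes of the list, 13 had a mean of 10 reads or more, and all 13 were lowest in replicate 2. Among the genes with fewer reads, Cd79a had 10, 9 and 5 reads, lowest in replicate 3. Ptprc had 6.23, 1.88 and 11.4 RPKM and Tyrobp, a signalling adaptor of myeloid and NK cells, 58.2, 30.6 and 113. The B cell marker Ms4a1 was near 0, with 5, 3 and 5 reads, as was the NK cell marker Ncr1, with 2, 0 and 1, while the B cell receptor gene Cd79b had 72, 88 and 89 reads. A neutrophil list, chosen after the values were seen, summed to 2060, 221 and 3702 RPKM over 10 genes, and a macrophage list chosen in the same way to 68.6, 65.3 and 112 over 8 genes.

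Some secreted products were also lowest in replicate 2. Saa3, an acute-phase serum amyloid gene, had 126, 1.52 and 103 RPKM, a highest value 89.5 times the lowest on the scaled reads. Chil1, a chitinase-like secreted protein gene, had 691, 163 and 237. Cxcl1, another neutrophil-attracting chemokine gene, had 40.6, 6.96 and 46.6. The leukocyte list had its lowest sum in the same library. Whether leukocyte number had a part in them was not tested.

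Heat shock genes set replicate 3 apart. Hspa1a and Hspa1b encode the inducible HSP70 chaperone, and both are transcribed from promoters that heat shock factors bind. Their promoter windows are printed because both genes held the highest CVs of all genes with a mean of 1000 scaled reads or more. The 250 bases before each start site come from RefSeq (GRCm38.p6, minus strand, chr17:34972157-34972406 for Hspa1a and chr17:34959239-34959488 for Hspa1b). Capitals mark the heat shock motif GAANNTTC, which reads the same on both strands.
Hspa1a: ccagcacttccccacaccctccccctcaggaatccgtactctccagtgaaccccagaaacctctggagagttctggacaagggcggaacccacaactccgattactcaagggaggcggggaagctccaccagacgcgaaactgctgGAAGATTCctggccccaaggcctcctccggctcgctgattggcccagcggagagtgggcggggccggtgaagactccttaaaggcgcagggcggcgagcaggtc
Hspa1b: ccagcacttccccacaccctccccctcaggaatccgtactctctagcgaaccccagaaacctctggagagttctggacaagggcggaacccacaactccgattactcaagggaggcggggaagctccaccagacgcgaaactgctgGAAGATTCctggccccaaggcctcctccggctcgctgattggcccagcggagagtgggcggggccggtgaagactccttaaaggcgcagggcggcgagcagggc

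The windows share 247 of 250 bases (98.8%), and each has 1 match, which begins 104 bases before the start site. Such a match was found in 2199 of 32851 windows of that length (6.69%). The windows of the heat shock genes Dnajb1 and Hsph1, searched at start sites 1 and 2 of each, had 0 matches. The windows of Nrarp and Notch3 were searched for an RBPJ motif, GTGGGAA, and also had 0 matches. A match is a description of the letters and not evidence of binding.

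Hspa1a had 47.6, 39.0 and 345 RPKM and Hspa1b had 139, 125 and 894, so replicate 3 was 8.99 and 7.27 times the lowest library on the scaled reads. Both genes are close copies of each other, and how reads that fit both were counted is not given in the sources used here. Dnajb1, an HSP40 co-chaperone gene, had 24.7, 25.04 and 70.2 RPKM, and Hsph1, an HSP110 gene, had 17.2, 18.2 and 20.4. The immediate early genes Fos (120, 104 and 240), Jun (86.5, 76.8 and 226) and Egr1 (14.1, 14.5 and 35.9), which encode transcription factors induced within minutes of a stimulus, were likewise highest in replicate 3.

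Near-identical copies limited how some levels can be read. Of 19 processed pseudogenes with a mean of 1000 reads or more, 18 matched a protein-coding transcript at 97% identity or more, with a median of 99.6%. Gm8730, a processed pseudogene in neither table (GRCm38, chr8:102864845-102865798), is a copy of Rplp0, the gene of a ribosomal stalk protein, with 12 differing bases in 954. A 60-base stretch of the fourth exon of Rplp0, within its coding sequence (chr5:115561168-115561227, plus strand) and its counterpart in Gm8730 (chr8:102865352-102865411, minus strand) are printed to show how alike the copies are. Capitals mark the 3 differing bases.
Rplp0: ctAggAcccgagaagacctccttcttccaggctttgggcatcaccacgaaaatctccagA
Gm8730: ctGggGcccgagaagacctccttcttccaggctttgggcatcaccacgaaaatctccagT

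Gm8730 had 5477, 4904 and 377 reads while Rplp0 had 14962, 13229 and 15647. The pseudogene thus took 26.8%, 27.0% and 2.35% of their summed reads, and replicate 3 stood apart from the others. The CV was 77.7% for Gm8730, 12.2% for Rplp0 and 10.7% for the sum. Another copy, Gm9625, chosen after its values were seen, had 956, 677 and 44 reads, also lowest in replicate 3. Rps3a3, chosen in the same way and 98.9% identical to Rps3a1, went in the other direction with 71, 46 and 937 reads, while Rps3a1 had 11279, 10115 and 5066. Their summed reads had a CV of 28.5%.

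The glycolytic gene Gapdh, a common reference, had 22.2, 11.1 and 28.7 RPKM, and 53 processed pseudogenes match it at 97% identity or more over at least 300 bases. Actb, with no such copy, had 696, 639 and 779. Whether the copies had a part in the level of Gapdh was not tested.

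Low mitochondrial genes lay along a continuous stretch. The 6 genes from mt-Co2 to mt-Nd4l, between positions 7013 and 10173 of the mitochondrial genome, had mean levels of 4.48 to 69.8 RPKM. Their neighbours mt-Co1 and mt-Nd4 had 10210 and 1208. For 5 of these 6 genes an annotated nuclear pseudogene on chromosome 1 matched 99.0% or more of the length at 99.7% identity or more, and for mt-Atp8 a match of 43 bases was found. Such a match covered 63.6% of mt-Nd4, and the closest nuclear copy of mt-Co1 was 97.6% identical. The copies Gm28661, of mt-Co2, and Gm10925, of mt-Atp6, had 480, 466 and 733 reads and 503, 493 and 966 reads, beside 610, 488 and 929 reads in mt-Co2 and 493, 496 and 824 in mt-Atp6. Ratios between mitochondrial genes were therefore not read from these tables.

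Genes that do not code for protein held a small share of reads. Long non-coding RNAs had 1.82 ± 0.199% of reads over 4306 listed genes, pseudogenes 0.870 ± 0.0115% over 3248 and small RNAs 0.320 ± 0.0963% over 1096. Among long non-coding RNAs Gm26917 (386 ± 119 RPKM) and Malat1 (268 ± 6.32), a nuclear speckle RNA, were the highest, followed by Xist (191 ± 35.6), the RNA that coats the inactive X chromosome. All 3 are in neither table. Gm23935, a 57-base entry annotated as a miRNA (chr16:11144125-11144181), had the highest RPKM of all, at 16134 ± 387, from 14144, 12987 and 12371 reads. It lies within Zc3h7a on the opposite strand. Its reads numbered about as many as those of Rplp0, and its RPKM was higher because the entry is short. Whether counting used strand is not given in the sources used here.

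Mir5125 (chr17:23823291-23823369) had 914, 1050 and 1057 reads and lies inside Srrm2, a splicing factor gene on the same strand with 29701, 30706 and 32828 reads. Reads of the miRNA precursor and of Srrm2 cannot be told apart in a library of this kind. The mature sequence is printed for identity, from RefSeq (GRCm38.p6), with its seed, bases 2 to 8, in capitals.
mmu-miR-5125: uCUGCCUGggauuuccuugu

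Entries without an Ensembl identifier, which carry a running number of the authors, numbered 761 and held 0.756%, 0.782% and 0.857% of reads. Of them 391 were in neither table and 16 had a mean of 1000 scaled reads or more. The highest of all had 14118, 11536 and 15098 reads. The highest in neither table had 5341, 11131 and 19575 reads, a CV of 62.8%. No length is given for these entries, so they have no RPKM.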

How the data were processed

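RNA-seq was made from 3 U-OEx luminal epithelium samples, with total RNA and the NEBNext Ultra kit, per the labels' protocols. The authors' deposited values were handled as a signal, which is a read count divided by 1 factor per library (1.09, 1.13 and 1.04). This was read from the values, of which 100% came out as whole reads within 0.01. The aligner, counter, strand setting and scaling method are not given in the sources used here, and the submitters' processing notes name the builds GRCm38 and mm10. No value of the other 12 samples was used except to test how their gene lists were selected.

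Identifiers were matched to GENCODE M21 (27147 of 27185), whose symbols replaced the deposited names, since 24 of those belong to another gene there. RPKM used merged exon lengths. The CV was taken on the deposited scale, and edgeR (4.0.16, R 4.3.3, TMM) estimated dispersion for genes with a mean of 10 reads or more; both were tested on simulated data. Copies were found with blastn 2.17.0. Named genes were members of the gene lists, the 20 highest levels, the 12 highest and 12 lowest CVs at 1000 scaled reads or more, each overall and among genes in neither table, and the highest of each non-coding class. Members and lists were chosen with earlier results of these data known. Other scalings, thresholds, lengths and leaving out each replicate were tried. RNA-seq reads without molecular identifiers are not independent molecules, so counting errors cover counting only.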

Additional observations from a re-analysis of the deposited data

How the results depend on the processing

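The count of genes at 1 RPKM or more in every library (12994) stayed within 1.5 times under TPM (15774), the longest transcript, TMM library sizes, thresholds of 0.5 and 2 RPKM and, as an alternative added after seeing the data, library totals without mitochondrial genes. The count of genes in neither table (19885) was 13584 with at least 10 reads in total, and the share of their reads moved by less than its SD under every alternative tried. The median CV of 12.3% was 16.3% for genes with a mean of 10 reads or more and 29.3% with no filter, since those add genes with few reads. It ranged from 8.52% to 11.1% with 1 replicate left out, lowest without replicate 3. The median of CVs from 2 libraries tends to lie below that from 3. Those values can therefore be set against each other but not against 12.3%. The common biological coefficient of variation ranged from 21.5% to 31.0% with 1 replicate left out. TPM values of single genes were about 3.09 to 3.27 times their RPKM, so all 429 gene and list levels moved in size under TPM. Under TMM library sizes 4 of 429 moved by more than their SD. Of the CVs of 29 named genes with the highest or lowest spread, 8 moved under TMM by more than the SD of their values with 1 replicate left out. The order of the libraries in the summed level changed under TPM or TMM for 8 of 34 sums, among them the luminal epithelial, steroid receptor and proliferation lists and HoxB (1294, 1535 and 1531 TPM in replicates 1 to 3), and for neither the leukocyte nor the immediate early and heat shock sum. No paired analysis was possible because the results come from a single group and from no test. With 3 libraries the SD itself is imprecise, and a gene with fewer than 100 reads cannot be placed by its spread.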

Other observations

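A few genes differed between the libraries by far more than their group (all chosen after their values were seen). Reg1, a secreted lectin-like protein gene, had 1, 421 and 0 reads in replicates 1 to 3, and the urothelial gene Upk1a had 8, 573 and 13. The stratified keratin genes Krt5 and Krt13 had 71, 1299 and 79 reads and 27, 525 and 30 reads, so these 4 were highest in replicate 2. Of the 8 stratified and urothelial genes with a mean of 10 reads or more, 6 were highest in replicate 2. The exceptions were Upk1b, with 17, 17 and 134 reads, and Dsg3, with 399, 170 and 197. The list of 10 summed to 18.5, 133 and 22.8 RPKM. Zfp990, a zinc finger gene in neither table, had 0, 365 and 343 reads, and Atp6v1c1, a proton pump subunit gene in neither table, had 21, 583 and 20.

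Genes read in a single library were low. Those with the most reads were Gm9008 with 58 in replicate 3, and Nkx1-2 with 25, Lama1 with 23, Pcdh20 with 19 and Dnah5 with 18 in replicate 2. Of 1570 annotated genes on chromosome Y, 3 are listed and 1 reached 1 RPKM. Ddx3y, Eif2s3y, Kdm5d and Uty are not in the tables. Xist had 156, 190 and 227 RPKM. Protein-coding genes of the X chromosome at 1 RPKM or more had a median level of 0.838, 0.820 and 0.780 times that of autosomal genes. There are 114 genes in both the Ctrl and E-OEX lists that are not listed here, among them the cytochrome P450 gene Cyp3a25 and the gastric lipase gene Lipf.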
